A study of Rattus norvegicus with 8 samples.

Results

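The genes described here carry fatty acids into heart muscle and burn them in mitochondria, and were followed in 4 isolated rat hearts perfused with doxorubicin and 4 perfused without it. The list holds 39 genes, chosen by name for their place in this pathway and not by their values, though earlier results of these data were known. All 39 were measured, out of 14217 genes named on the array, and each was read from the brightest of its probe sets, judged by the mean of the 8 arrays. The tested hearts received 2 µM doxorubicin, an anthracycline anticancer drug known for its toxicity to the heart, for 2 h. Control hearts were perfused for the same 2 h without the drug. All hearts came from male Wistar rats and were fed through the aorta in a Langendorff apparatus whose perfusate was not recirculated. The sources used here do not give the age of the animals or the fuels in the perfusate. Each heart was hybridized to its own array, and the hearts within a group are biological replicates according to their titles.

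Heart muscle takes most of its energy from long-chain fatty acids. Lipoprotein lipase frees them from circulating triacylglycerol, Cd36 and Slc27a1 bring them across the membrane, and Fabp3 carries them in the cytosol. Acyl-CoA synthetases activate them, the carnitine shuttle moves them into mitochondria, and chain-length-specific dehydrogenases, hydratases and thiolases then shorten them, handing electrons to the electron transfer flavoprotein. Unsaturated fatty acids need auxiliary enzymes as well. Among them, the isomerases Eci1 and Eci2 move double bonds, and the reductase Decr1 removes conjugated ones. Many of these genes are targets of the nuclear receptor PPAR alpha with its partner RXR alpha.

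Levels are given as log2 of the deposited intensity, and differences as doxorubicin minus control on that log2 scale, each with its SE (standard error) from limma. A gene was called changed at a Benjamini-Hochberg adjusted p under 0.05 over all probe sets. The arrays resembled each other closely, with correlations across probe sets of 0.988 to 0.996 within groups and 0.985 to 0.993 between groups, and no pair of arrays held identical values. Cardiomyocyte markers were close in all hearts, with a mean over 8 genes of 13.67 to 13.72 log2 in doxorubicin hearts and 13.65 to 13.69 log2 in control hearts. Markers of atrial muscle differed widely from heart to heart, with means over 4 genes of 7.46 to 12.06 log2 in doxorubicin hearts and 6.63 to 11.02 log2 in control hearts. Markers of fat cells ranged from 6.03 to 8.14 log2 in doxorubicin hearts, where heart 4 was highest, and from 6.08 to 6.79 log2 in control hearts, as means over 8 genes. The hybridization controls, bacterial and phage RNAs spiked in before hybridization, read lower on the doxorubicin arrays (10.02 ± 0.08 log2) than on the control arrays (10.32 ± 0.17 log2; SD, n = 4 each).

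Of the 39 genes, 1 fell, none rose and 38 did not pass the test. The gene that fell was Decr1, which encodes the mitochondrial 2,4-dienoyl-CoA reductase, the enzyme that clears conjugated double bonds during the oxidation of polyunsaturated fatty acids. Over all genes, 2.97% were called, 2.17% lower and 0.802% higher (2.21% of all probe sets), so 1 of 39 is close to the background share. At an unadjusted limma p under 0.05, 3 of the 39 passed (Decr1, Acot1 and Plin2), against 16.7% of all genes. The groups of hearts did not overlap for 5 of the 39 (Decr1, Acot1, Plin2, Hadha and Hadhb), against 10.4% of all genes. The median difference was 0.041 over the 39 genes and 0.006 over all genes.

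**Figure D1:**
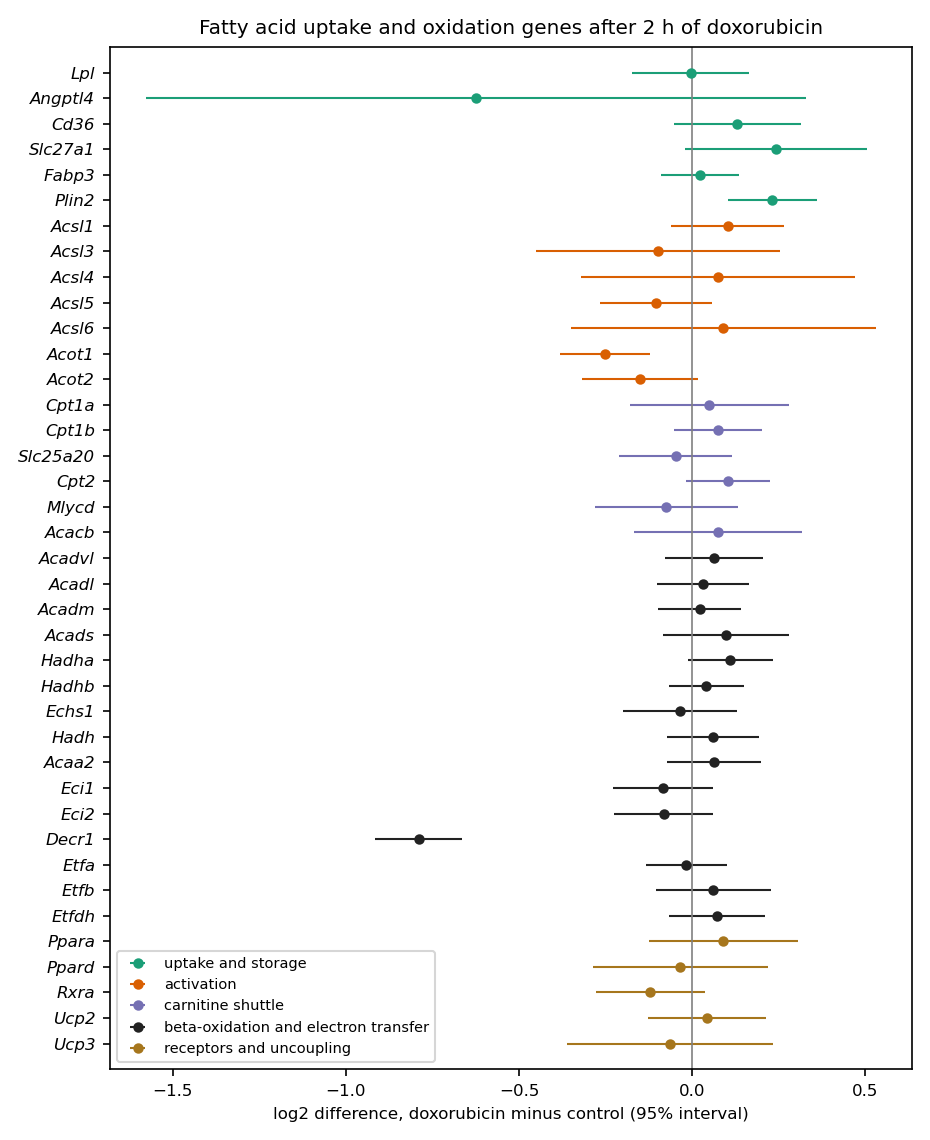
Log2 difference (horizontal axis, doxorubicin minus control) of each of the 39 genes with its 95% interval from the limma fit over 4 and 4 hearts, grouped by role in the order uptake, activation, carnitine shuttle, oxidation and receptors. Decr1 stands at -0.79, apart from all other oxidation genes, and Angptl4 has the widest interval.

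Decr1 lay at 11.39, 11.35, 11.36 and 11.41 log2 in doxorubicin hearts 1 to 4, against 12.07, 12.19, 12.19 and 12.23 log2 in control hearts 1 to 4. Every doxorubicin heart was below every control heart, and the gap between the groups was many times the spread within either. The group means were 11.38 ± 0.03 log2 with doxorubicin and 12.17 ± 0.07 log2 without it (SD, n = 4 each). Decr1 thus fell by 0.79 on the log2 scale (SE 0.056, limma adjusted p = 9.04e-05), to 57.8% of the control level with a 95% interval of 53.0% to 63.1%. By its p-value it ranked at place 21 of 14217 genes, and by size of change at place 132 of the 308 genes that fell. Only 1 probe set on the array is assigned to Decr1, so no other probe set could be read beside it. In whole hearts, less Decr1 RNA per cell and fewer cells that hold it cannot be told apart, and none of the 8 cardiomyocyte markers measured passed the test.

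The call for Decr1 did not rest on any single heart. Leaving out each of the 8 hearts in turn gave differences of -0.82 to -0.77 with limma adjusted p of 0.000159 to 0.000809. With the level of the hybridization controls as covariate the difference was -0.78 (adjusted p = 0.0212), where the number of genes called overall went down to 60, against 422 without the covariate. That level did not overlap between the groups (9.97 to 10.13 log2 with doxorubicin, 10.21 to 10.57 log2 without it). This fit therefore separates it poorly from doxorubicin, and the SE of Decr1 was 0.099 with the covariate against 0.056 without it.

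The 2 other auxiliary enzymes of unsaturated fatty acid oxidation in the gene list were not called. The intervals of Eci1 and Eci2 lay outside that of Decr1. Eci1, an enoyl-CoA isomerase, lay at 11.51, 11.56, 11.52 and 11.43 log2 in doxorubicin hearts, against 11.73, 11.52, 11.52 and 11.59 log2 in control hearts (difference -0.08, SE 0.065, adjusted p = 0.663). Eci2, the second isomerase, lay at 11.19, 11.06, 11.22 and 11.03 log2 with doxorubicin, against 11.28, 11.18, 11.22 and 11.15 log2 without it (-0.08, SE 0.064, adjusted p = 0.663). For both the groups overlapped, and the 95% intervals ran from 85.3% to 104% and from 85.6% to 104% of the control level. A probe set assigned to Eci2 together with Eci3 stood at 7.00e-04. Ech1, a further auxiliary isomerase, was counted with the peroxisomal genes below and stood at 0.02 (SE 0.08, adjusted p = 0.96).

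Around Decr1, the main spiral of beta-oxidation was measured with high precision and showed no called change. The other 14 oxidation and electron transfer genes had differences of -0.08 to 0.11, with a median of 0.05. Of the 14, 10 were positive, as were 7375 of all 14217 genes. For 13 of the 14 the 95% interval lay within a 1.2-fold change in either direction, and for all 14 within 1.5-fold. Over all genes, 44.7% had an interval within 1.2-fold and 91.5% within 1.5-fold. All 15 representative probe sets, Decr1 included, were among the brightest 25% of the table, so low signal did not limit these values. Set against the median of these 14 genes in the same heart, Decr1 stood at -0.58, -0.63, -0.67 and -0.52 log2 in doxorubicin hearts 1 to 4, against 0.17, 0.28, 0.28 and 0.32 log2 in the controls. This ratio is unaffected by any scaling of a whole array, and the doxorubicin hearts were again all below the control hearts.

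**Figure D2:**
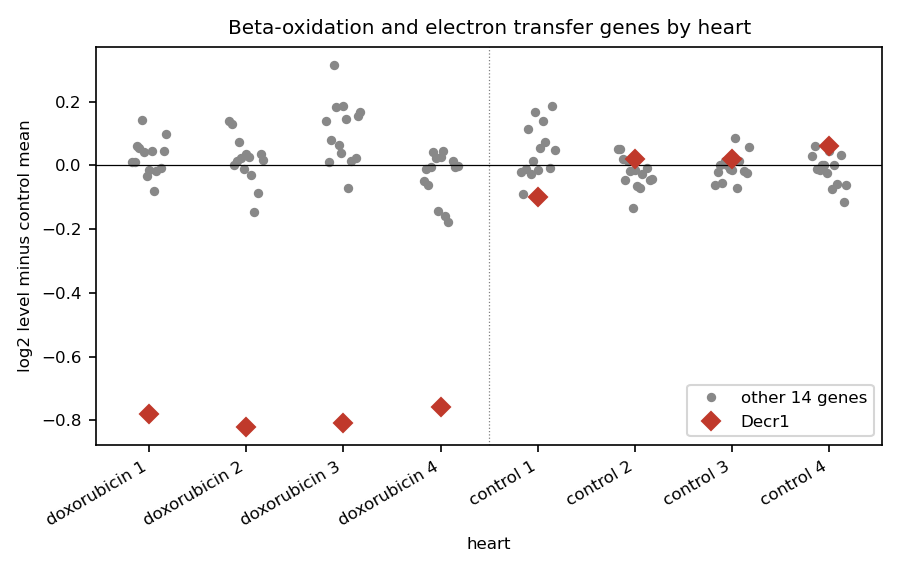
Level of the 15 oxidation and electron transfer genes in each heart (horizontal axis), as log2 level minus the gene's mean in the 4 control hearts (vertical axis). Decr1 (red diamonds) is far below 0 in the 4 doxorubicin hearts, while the other 14 genes (grey points, spread sideways so that they can be seen) scatter around 0 in all 8 hearts.

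The 4 acyl-CoA dehydrogenases catalyse the first step for fatty acids of different chain length. Acadvl, for very long chains, had a difference of 0.06 (SE 0.063) and Acadl, for long chains, 0.03 (SE 0.060). Acadm, the medium-chain enzyme, lay at 13.06, 13.00, 13.08 and 12.94 log2 in doxorubicin hearts, against 12.99, 13.02, 13.00 and 12.99 log2 in control hearts, a difference of 0.02 (SE 0.054). Acads, for short chains, stood at 0.10 (SE 0.081). None of these 4 passed the test, and for each the 2 groups of hearts overlapped. Etfa and Etfb, the subunits of the electron transfer flavoprotein that takes up the electrons of these enzymes, stood at -0.02 and 0.06, and Etfdh, which passes them to ubiquinone, at 0.07.

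Hadha and Hadhb encode the alpha and beta subunits of the mitochondrial trifunctional protein, which carries out the last 3 steps of the cycle on long chains. In the rat genome they are read in opposite directions from neighbouring starts, and they were the one pair among the 33 genes with a RefSeq promoter window (250 bases before to 50 bases after the start) whose windows share bases. The Hadha window is shown because the hearts of the 2 groups did not overlap for either gene, as was so for 10.4% of all genes. Neither gene was called, and a part of the shared bases in their levels was not tested. It lies at chr6:31907551-31907850 on the plus strand of GRCr8, per RefSeq, and is printed 5′ to 3′, with the 200 bases it shares with the Hadhb window (chr6:31907451-31907750, minus strand) in capitals. The 2 start sites are 301 bases apart.
Hadha: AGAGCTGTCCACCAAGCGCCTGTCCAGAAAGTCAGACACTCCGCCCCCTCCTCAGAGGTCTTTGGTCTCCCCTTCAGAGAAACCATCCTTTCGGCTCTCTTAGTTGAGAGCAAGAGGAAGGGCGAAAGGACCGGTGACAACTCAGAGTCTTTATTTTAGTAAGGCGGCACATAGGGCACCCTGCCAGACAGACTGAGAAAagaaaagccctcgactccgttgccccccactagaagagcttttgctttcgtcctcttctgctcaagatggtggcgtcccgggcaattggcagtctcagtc

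Hadha lay at 12.17, 12.10, 12.21 and 12.07 log2 in doxorubicin hearts, against 12, 12.04, 12.04 and 12.03 log2 in control hearts. Its difference of 0.11 (SE 0.054, adjusted p = 0.427) did not pass, and its 2 dim further probe sets stood at -0.02 and -0.09, so that the mean of all its probe sets gave 0.001. Hadhb lay at 13.07, 13.05, 13.09 and 13.05 log2 with doxorubicin, against 13.04, 13.01, 13.03 and 13.03 log2 without it, a difference of 0.04 (SE 0.048, adjusted p = 0.811). For both genes every doxorubicin heart was above every control heart, but by small margins, and the upper ends of the 95% intervals were 117% and 111% of the control level.

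The later steps on shorter chains also showed no called change. Echs1, the short-chain enoyl-CoA hydratase, stood at -0.04 (SE 0.074), Hadh, the 3-hydroxyacyl-CoA dehydrogenase, at 0.06 (SE 0.060), and Acaa2, the thiolase that releases acetyl-CoA, at 0.06 (SE 0.061). The median deviation of the 14 genes other than Decr1 from their 8-heart means was 0.09 log2 in doxorubicin heart 3 and -0.04 to 0.01 log2 in the other 7 hearts.

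PPAR-RXR elements are built from 2 copies of the nuclear receptor half-site AGGTCA spaced by 1 base. The half-site was found, on either strand, in the windows of 8 of the 33 genes (24.2%), against 16.2% of all 33469 windows of the same length. Its bearers included Hadhb, Eci1, Eci2, Acadvl and Ucp3. The full element, 2 half-sites in the same direction with 1 base of any kind between them, was in none of the 33 windows and in 0.0538% of all windows. The GC box GGGCGG was in 20 of the 33 (60.6%), against 33.1% of all windows, while the median GC content was 60.3% in the 33 windows and 51.7% in all windows. The 33 genes gave 1 window each. The 33469 were all windows of that length, with no choice of 1 per gene or of genes on the array, so the 2 sets are unlike. These are matches of letters only, in a short window, and Decr1, Acaa2, Acadl, Cpt1b, Lpl and Ppard had no window in the table used.

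Among the 6 genes of uptake and storage none was called, with a median difference of 0.076. Fabp3, the cytosolic fatty acid carrier of heart muscle, lay at 13.63, 13.62, 13.62 and 13.58 log2 in doxorubicin hearts, against 13.63, 13.55, 13.57 and 13.61 log2 in control hearts (0.02, SE 0.050). Lpl, lipoprotein lipase, had a difference near 0 (-0.0044, SE 0.075), and Cd36, the membrane fatty acid translocase, stood at 0.13 (SE 0.082). The groups overlapped for all 3 genes. A probe set assigned to Cd36 together with a second symbol stood at 0.05. Slc27a1, a fatty acid transport protein, lay at 9.16, 9.0, 9.29 and 9.21 log2 with doxorubicin, against 9.27, 8.73, 8.76 and 8.92 log2 without it (0.24, SE 0.118, adjusted p = 0.42). Control heart 1 lay at the upper end of the doxorubicin range and the other control hearts below that range.

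Plin2, which coats lipid droplets, had the smallest p among the members that were higher after doxorubicin. It lay at 10.55, 10.70, 10.68 and 10.64 log2 in doxorubicin hearts, against 10.36, 10.44, 10.39 and 10.46 log2 in control hearts. Every doxorubicin heart was above every control heart, and the difference was 0.23 (SE 0.057, unadjusted p = 0.00247, adjusted p = 0.0803), with a 95% interval of 107% to 128% of the control level. A dimmer second Plin2 probe set did not share it, at 8.62, 8.25, 8.66 and 8.29 log2 with doxorubicin and 8.83, 8.46, 8.35 and 8.12 log2 without it, a difference of 0.01 (SE 0.150).

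Angptl4, a secreted inhibitor of lipoprotein lipase, varied more from heart to heart than any other of the 39 genes. It lay at 5.22, 4.92, 4.74 and 6.6 log2 in doxorubicin hearts 1 to 4, against 5.19, 6.66, 6.38 and 5.74 log2 in control hearts 1 to 4. Doxorubicin heart 4 stood with the high control hearts and control heart 1 with the low doxorubicin hearts. The difference was -0.62 (SE 0.425, adjusted p = 0.606), and leaving out single hearts gave -1.04 (without doxorubicin heart 4, adjusted p = 0.193) to -0.40 (without control heart 2, adjusted p = 0.693), with -0.41 without doxorubicin heart 3. Over 8 fat cell markers, the mean was 6.49, 6.08, 6.03 and 8.14 log2 in doxorubicin hearts 1 to 4. In control hearts 1 to 4 that mean was 6.11, 6.79, 6.28 and 6.08 log2. The atrial marker mean was 10.09, 9.36, 7.46 and 12.06 log2 in doxorubicin hearts 1 to 4, against 6.63, 11.02, 10.03 and 7.38 log2 in control hearts 1 to 4, which is the heart order of Angptl4 within each group. The fibroblast marker mean over 6 genes was 10.59, 10.58, 10.53 and 11.05 log2 in doxorubicin hearts, against 10.09, 10.78, 10.87 and 10.41 log2 in control hearts, and was likewise highest in doxorubicin heart 4 and in control hearts 2 and 3. None of the 8 fat cell, 4 atrial and 6 fibroblast markers measured was called, and their part in the Angptl4 values was not tested.

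**Figure D3:**
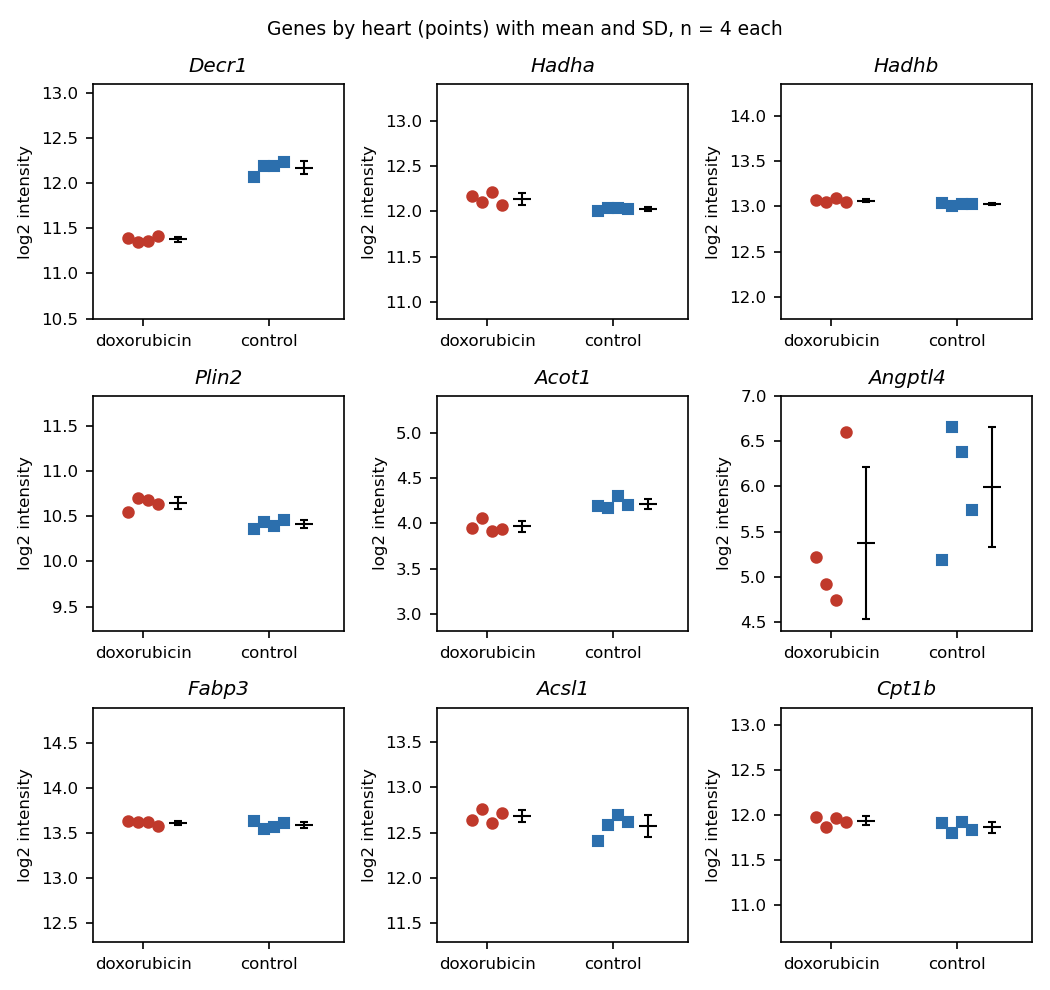
Log2 intensity of 9 genes in each doxorubicin heart (circles) and control heart (squares), with the mean and SD of each group beside the points (n = 4 each). All panels span the same number of log2 units, and Decr1 shows the widest gap between the groups, while Angptl4 is scattered in both.

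Fatty acid activation and its reversal gave 7 genes, none of them called, with a median difference of -0.10. Acsl1, the main long-chain acyl-CoA synthetase of the heart, lay at 12.64, 12.76, 12.61 and 12.72 log2 in doxorubicin hearts, against 12.41, 12.58, 12.69 and 12.62 log2 in control hearts (0.10, SE 0.073, adjusted p = 0.623). Its 2 other probe sets stood at 0.12 and -0.03. The other synthetases had differences of -0.10 (Acsl3), 0.07 (Acsl4), -0.11 (Acsl5) and 0.09 (Acsl6). Acsl6 had a wide spread, at 7.78, 7.34, 7.87 and 7.17 log2 with doxorubicin and 7.95, 7.42, 7.21 and 7.23 log2 without it, so that hearts of both groups fell at its upper and lower end.

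Acot1 and Acot2 hydrolyse acyl-CoA back to free fatty acid, Acot1 in the cytosol and Acot2 in mitochondria, and their sequences are close enough for one probe set to be assigned to both. Acot1 lay at 3.95, 4.06, 3.92 and 3.94 log2 in doxorubicin hearts, against 4.19, 4.17, 4.30 and 4.20 log2 in control hearts. The groups did not overlap, and the difference was -0.25 (SE 0.058, adjusted p = 0.0642). Its signal was in the dimmest 25% of probe sets, so the size of the difference is uncertain. Acot1 passed the test in 3 of the alternative fits (adjusted p 0.0356 to 0.0441). In the other fits that held it, Acot1 did not pass. With the hybridization covariate its difference was -0.169 (limma adjusted p = 0.871). Acot2 stood at -0.15 (SE 0.075, adjusted p = 0.432) by its brightest probe set. Its other probe sets gave -0.48 (unadjusted p = 0.046, adjusted p = 0.354) and -0.08, and the probe set assigned to both genes gave -0.09.

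The carnitine shuttle and its control by malonyl-CoA comprised 6 genes, none called, with a median difference of 0.061. Cpt1b, the muscle form of carnitine palmitoyltransferase 1 and the entry point for long-chain fatty acids, lay at 11.98, 11.87, 11.97 and 11.92 log2 in doxorubicin hearts, against 11.91, 11.80, 11.92 and 11.83 log2 in control hearts (0.07, SE 0.057, adjusted p = 0.659). Its 95% interval was 96.4% to 115% of the control level. Cpt1a, the form that predominates in liver, stood at 0.05 (SE 0.103) by its representative probe set. A second Cpt1a probe set lay at 8.06, 7.95, 8.21 and 8.01 log2 with doxorubicin, against 7.76, 8.09, 7.54 and 7.57 log2 without it, a difference of 0.32 (unadjusted p = 0.0231, adjusted p = 0.26), with control heart 2 inside the doxorubicin range.

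Slc25a20, the carrier that exchanges acylcarnitine for carnitine across the inner membrane, stood at -0.05 (SE 0.073), and Cpt2, which returns the acyl group to CoA, at 0.10 (SE 0.054, adjusted p = 0.471). Acacb makes malonyl-CoA, the inhibitor of carnitine palmitoyltransferase 1, and Mlycd breaks it down. Acacb stood at 0.07 (SE 0.109) and Mlycd at -0.08 (SE 0.092), and for each the groups overlapped.

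The receptors and uncoupling proteins were likewise without a called gene, with a median difference of -0.034 over 5. Ppara, the receptor PPAR alpha, lay at 4.78, 4.59, 5.0 and 4.56 log2 in doxorubicin hearts, against 4.59, 4.58, 4.69 and 4.72 log2 in control hearts (0.09, SE 0.096). Ppard stood at -0.03 (SE 0.113) and Rxra at -0.12 (SE 0.070, adjusted p = 0.522). Ucp2, an inner-membrane carrier of the uncoupling protein family, lay at 9.73, 9.79, 9.53 and 9.49 log2 with doxorubicin, against 9.62, 9.56, 9.58 and 9.62 log2 without it, so that the control hearts lay inside the doxorubicin range (0.04, SE 0.076). Ucp3, the muscle form, stood at -0.06 (SE 0.133), and at 0.21 by its second probe set, without passing by either.

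**Figure D4:**
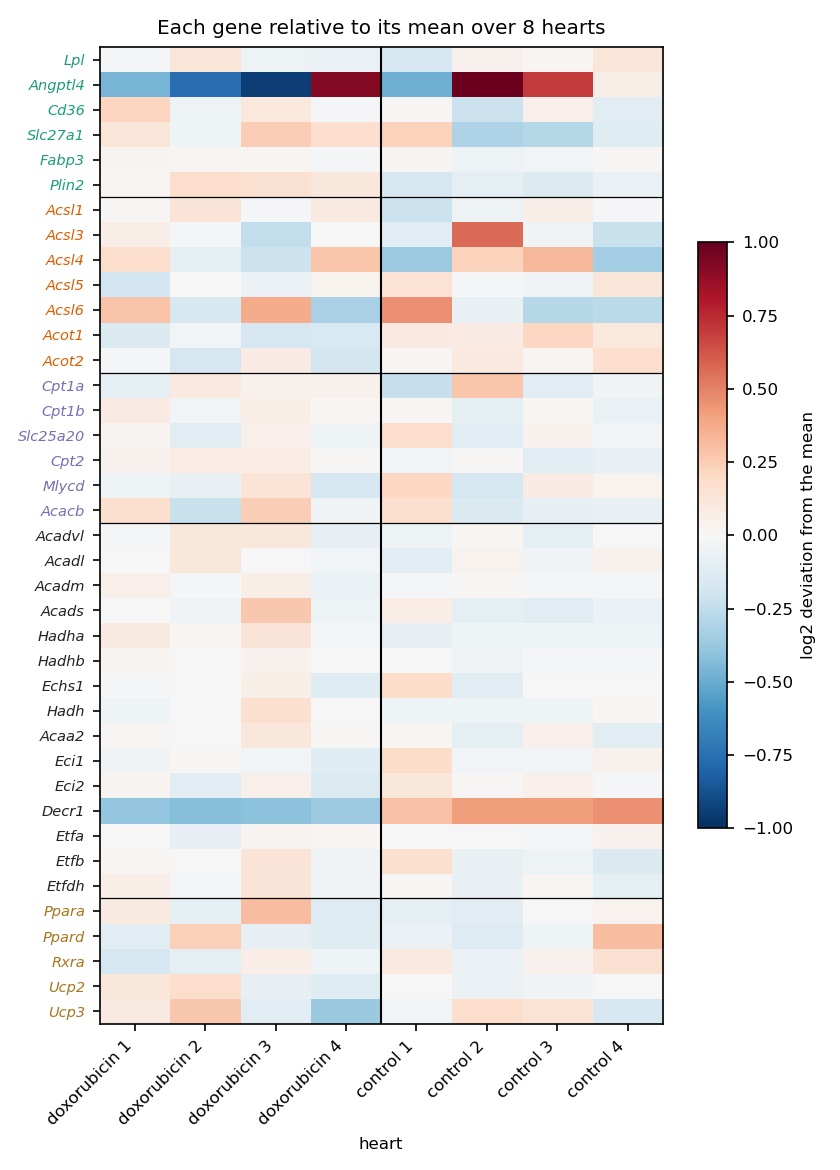
Each of the 39 genes (vertical axis, coloured by role as in the plot of differences) in each heart (horizontal axis), as log2 deviation from the gene's mean over the 8 hearts. Decr1 is the one row that is low in all 4 doxorubicin hearts and high in all 4 control hearts by a wide margin, and Angptl4 is high in doxorubicin heart 4 and control hearts 2 and 3.

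The median SD of the 39 genes was 0.083 log2 over the doxorubicin hearts and 0.080 log2 over the control hearts, against 0.100 and 0.128 log2 over all genes. Of the 39, 32 were in the brightest 25% of probe sets, as were 5346 of the 14217 genes. Median SDs were lower for 15 other acyl-CoA and related enzymes, most of them mitochondrial (0.076 log2 over doxorubicin hearts, 0.070 log2 over control hearts). They were also lower for the 8 cardiomyocyte markers (0.052 and 0.043 log2). With Decr1 set aside, 37 of the other 38 differed by less than 0.3 log2 (91.6% of all genes did), Angptl4 being the exception. The 95% interval lay within 1.5-fold for 37 of the 38. Of 15 further probe sets for 12 of the genes, none was called and 2, for Acot2 and Cpt1a, had an unadjusted p under 0.05.

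In neighbouring parts of lipid metabolism, called genes were read against 2.97% called and 2.17% lower among all genes. Of 16 genes of triacylglycerol turnover, 1 fell, Plin3, a lipid droplet coat protein, and none rose. Plin3 lay at 8.76, 8.56, 8.64 and 8.68 log2 in doxorubicin hearts, against 8.89, 9.08, 8.99 and 9.09 log2 in control hearts (-0.35, SE 0.069, adjusted p = 0.0301). It lost the call without any one of 6 of the 8 hearts, with adjusted p up to 0.0917. Plin5, the droplet protein that tethers mitochondria, stood at -0.26 (adjusted p = 0.102) and Abhd5, the activator of adipose triglyceride lipase, at -0.12 (adjusted p = 0.36).

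Among 17 PPAR partners and targets 2 fell and none rose, where 2.17% of all genes were called lower and 0.802% higher. Pdk4, the kinase that shuts pyruvate dehydrogenase when fatty acids are burned and a PPAR target, lay at 10.57, 10.57, 10.54 and 10.46 log2 in doxorubicin hearts, against 11.46, 11.49, 11.37 and 10.95 log2 in control hearts (-0.78, SE 0.112, adjusted p = 0.00589). Nrip1, a corepressor of nuclear receptors, lay at 4.88, 4.94, 4.64 and 5.48 log2 with doxorubicin, against 5.56, 5.98, 5.88 and 5.66 log2 without it (-0.78, SE 0.167, adjusted p = 0.0434). Nrip1 lost the call without any one of 6 hearts (adjusted p up to 0.139). With the hybridization covariate the differences were -0.70 for Pdk4, -0.77 for Nrip1 and -0.35 for Plin3, close to those without it, but none of the 3 was called (adjusted p 0.383 to 0.676). Rxrg, a relative of Rxra, stood at 0.32 and Klf15, a regulator of lipid use in muscle, at 0.44, without passing (adjusted p = 0.0855 and 0.098).

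Peroxisomal beta-oxidation had none of 10 genes called, with Hsd17b4 at 0.11 and Abcd3 at -0.15. None of 3 ketone body genes passed, with Acat1 at 0.09 and Oxct1 at 0.06. Among 15 other acyl-CoA and related enzymes, most of them mitochondrial, none passed, with Acad9 at 0.32 (adjusted p = 0.0939) and Pccb at 0.10. The cytosolic Acaca was among these 15. Of 11 further uptake and carnitine genes none passed, with Fabp5 at 0.44 (adjusted p = 0.0889) and Lmf1 at 0.38. At an unadjusted limma p under 0.05, 1005 of all 14217 genes were lower and 1375 higher (16.7% in both directions together). Triacylglycerol turnover had 3 of 16 genes lower and none higher, and the PPAR partners and targets 4 of 17 lower and 2 higher. The further uptake and carnitine genes had 2 higher (Fabp5 and Lmf1) and none lower. The other acyl-CoA and related enzymes had 1 higher (Acad9) and none lower, and the peroxisomal and ketone body lists had none.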

How the data were processed

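RNA of 8 rat hearts was read on Affymetrix arrays, 1 per heart. The deposited values are intensity values of probe sets made with RMA, per the submitters' processing notes, and are linear, as the array medians of 29.9 to 31.0 show. The sources used here do not give the RMA version or probe set definitions. RMA makes array distributions alike, so a shift shared by most transcripts would not show. Arrays have no sequencing depth, and their number limits the precision.

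The log2 of each value was taken, with no offset. Of 31099 probe sets, 57 controls were left out. The platform annotation gave 1 symbol to 20826 of the other 31042, several to 436 and none to 9780, and symbols were updated through gene IDs of the RefSeq table (GRCr8), which held 20758 of the 20826. The 4 doxorubicin and 4 control arrays were compared with lmFit and eBayes of limma 3.58.1 (R 4.3.3) over all 31042 probe sets and 8 arrays, two-sided, with no covariate. The fit was tested on simulated data. Figures used Python 3.11.15 and matplotlib 3.10.9. Promoter letters were counted in RefSeq windows.

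The 39 genes, the other lists and the tests were chosen with earlier results of these data known. Values were given by heart for called genes, for those with an unadjusted p under 0.05, for differences of at least 0.3 log2, for those with another probe set called (there were none) and for the brightest gene of each role, and others were added after their values were seen. From each other pathway list, called genes and then the 2 with the smallest p were named. Of 116 genes in the other lists, 107 were measured and the rest are not analysed here. Endothelial markers had 1 of 7 called (Tie1, 0.34), where 2.97% of all genes were called. Tie1 lost the call without doxorubicin heart 1, 2 or 3 and with the hybridization covariate (adjusted p = 0.456). Macrophage (8), fibroblast (6), cardiomyocyte (8), atrial (4) and fat cell (8) markers had none called by their brightest probe sets. A dimmer probe set of the macrophage marker Laptm5 was called higher (0.48, adjusted p = 0.0495). The alternatives tried are given in the closing section.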

Additional observations from a re-analysis of the deposited data

Results flagged for a closer look

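In groups of 4 hearts, a heart was picked out when its distance to the nearest other heart took up more of the range of the group than Dixon's critical value allows. Among 86 groups checked, 3 had such a heart, and chance picks out about 1 in 20 groups. For Hadh, control heart 4 lay at 12.52 log2, with the next control heart at 12.46 log2. For Acaa2, doxorubicin heart 3 lay at 12.79 log2, with the next at 12.69 log2. For Ppard, doxorubicin heart 2 lay at 6.82 log2, with the next at 6.50 log2. None of the 3 genes was called with all hearts or without any one of them.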

How the results depend on the processing

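Decr1 was the one member called in 15 of the 18 fits, the reported one included. The members called numbered 2, with Acot1 added, with an intensity trend (adjusted p = 0.0356), array weights (0.0415) and probe sets averaged per gene (0.0441), and 1 without any one heart. Over all settings Decr1 stood at -0.82 to -0.77, with adjusted p up to 0.0212. The hybridization covariate lowered the calls overall to 92 probe sets and 60 genes, against 687 and 422. Leaving out single hearts gave 397 to 854 probe sets and 248 to 512 genes, with 248, 278 and 262 genes without doxorubicin heart 1, 2 or 3 and 267 without control heart 3. Same-numbered hearts correlated at -0.18 to 0.06 after removing group means, and no heart correlated best with its own number. These values show no pairing by number but cannot exclude one, as the hearts also differed in content such as atrial markers. With a replicate block 511 probe sets, 305 genes and 1 member were called.

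Of 662 values of single members under the alternatives, 628 kept sign and side of the threshold, and 31, all of uncalled genes, changed sign. With repeated quantile normalization or median centring these were Lpl (0.019 and 0.018) and Etfa (0.020 and 0.006). With the covariate they were Cpt1a (-0.122), Slc25a20 (0.016), Mlycd (0.002), Acadvl (-0.019), Acadl (-0.011) and Ucp3 (0.097), and outside the list Necab1 (-0.071). With probe sets averaged they were Acaa2 (-0.014) and Ucp3 (0.072). Leaving out single hearts gave ranges through 0 for Lpl (-0.062 to 0.035), Acsl3 (-0.191 to 0.074), Acsl4 (-0.033 to 0.196), Acsl6 (-0.021 to 0.255), Cpt1a (-0.023 to 0.148), Slc25a20 (-0.090 to 0.004), Echs1 (-0.081 to 0.017), Etfa (-0.030 to 0.008), Ppard (-0.119 to 0.063), Ucp2 (-0.008 to 0.091) and Ucp3 (-0.165 to 0.049). Necab1, a gene near Decr1 that is not a member and not among these 31, also changed sign with the covariate (-0.071). Its range without single hearts was -0.034 to 0.075. The cause of these changes was not tested. Acot1 is missing from the fit without the dimmest 25% of probe sets. Dim signals limit Acot1 and Ppara, and heart-to-heart spread limits Angptl4.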

Other observations

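Decr1 lies on rat chromosome 5, and the 3 protein-coding genes on each side of it in RefSeq order were read after its fall was seen. Of these 6 genes, 2 rose, 1 fell and 3 did not pass, against 2.97% of all genes called. Tmem64, a membrane protein gene that lies 2 places before Decr1, was at 7.90, 7.78, 7.88 and 7.88 log2 in doxorubicin hearts, against 7.27, 7.35, 7.33 and 7.24 log2 in the controls. It rose by 0.56 (SE 0.056, limma adjusted p = 6.64e-04), was called without any one of the 8 hearts, and its other probe sets rose by 0.46 and 0.51. With the hybridization covariate it stood at 0.60 (adjusted p = 0.0592).

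Nbn, a DNA double-strand break sensor gene that comes directly after Decr1, was at 8.08, 7.97, 7.75 and 7.95 log2 with doxorubicin and at 7.19, 7.67, 7.36 and 7.08 log2 without it. It rose by 0.61 (SE 0.125, adjusted p = 0.0356), but leaving out any of 7 hearts ended the call (adjusted p up to 0.122). Ripk2, a kinase gene of innate immune signalling 3 places after Decr1, was at 8.37, 8.20, 8.10 and 8.51 log2 with doxorubicin and at 9.82, 8.90, 9.44 and 9.15 log2 without it. It fell by 1.03 (SE 0.178, adjusted p = 0.0159) and lost the call without control heart 3 or doxorubicin heart 1, 2 or 3 (adjusted p up to 0.0601). With the hybridization covariate Nbn (0.68, adjusted p = 0.517) and Ripk2 (-0.80, adjusted p = 0.654) were not called. Necab1 (0.03), Calb1 (-0.10) and Osgin2 (0.23) did not pass. Genes beside each other thus stood in opposite directions, and whether their position has a part in this was not tested.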
